A study of Homo sapiens with 6 samples.

Results

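The aminoacyl-tRNA synthetases are the enzymes that load each transfer RNA with its amino acid before translation. The set described here held 36 genes of the 26485 symbols in the deposited tables. They were chosen by symbol from a list of 20 cytosolic and 16 mitochondrial enzymes, with earlier results of these data known. All 36 were found, the cytosolic genes under their older symbols (AARS, CARS and so on), and all 36 passed the filter on low counts. RNA came from AF22, an established human line of neuroepithelial-like stem cells made from reprogrammed (induced pluripotent) cells and labelled as neural stem cells. The 3 control libraries carried a control short hairpin RNA (shControl) and have the genotype WT in the labels, and the 3 knockdown libraries have the genotype COMMD3/COMMD3-BMI1 knockdown. COMMD3 encodes a subunit of an endosomal sorting complex, and COMMD3-BMI1 is a readthrough gene that joins it to the polycomb gene BMI1. The labels name 1 cell line and describe neither the knockdown reagent nor the origin of the replicates in separate cultures. The p-values therefore rest on the spread among these 6 libraries, possibly a technical one.

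Cytosolic synthetases serve the bulk of translation in the cell. Several of them sit in the multisynthetase complex, a large assembly held together by scaffold proteins. Many cytosolic synthetase genes are known targets of ATF4, the transcription factor that is translated when eIF2 kinases such as GCN2 sense stress or uncharged transfer RNA. Mitochondrial synthetases are encoded in the nucleus, imported, and used for the few proteins made from mitochondrial DNA. WARS, the cytosolic enzyme for tryptophan, is known in other cells as a gene induced by interferon, mainly interferon gamma.

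Library totals lay between 7294687 and 11579849 counts, and each synthetase gene had at least 109 counts in every library. COMMD3, the gene named in the knockdown label, had 31.7, 29.7 and 27.6 CPM (counts scaled to the library's adjusted total, as parts of 1e+06) in control replicates 1 to 3 and 12.9, 11.3 and 10.5 CPM in knockdown replicates 1 to 3, with no overlap, while COMMD3-BMI1 was listed at 0 in all 6 libraries. Markers of neural stem cells were present, with SOX2 at 288 ± 6.43 and NES at 659 ± 27.2 CPM in control and at 260 ± 8.2 and 703 ± 36.2 CPM in knockdown (SD, n = 3 each), although HES5 was listed at 0 in all 6 libraries. The summed level of 11 neural stem cell markers was between 2440 and 2590 CPM in control and between 2480 and 2550 CPM in knockdown, most of it from VIM and NES. Of the 10 tested, 3 fell (SOX2, PROM1 and ZBTB16, with log2 fold changes of −0.15, −0.26 and −0.52) and 1 rose, and the median was −0.145. Over all tested genes, 18.1% were called lower and 15.3% higher, so so few markers say little about the set. Summed markers of other cells ranged, in control and in knockdown, from 646 to 703 and from 604 to 633 CPM for 6 neuronal genes, from 73 to 76.9 and from 46.3 to 55.3 CPM for 4 astrocyte genes, and from 177 to 188 and from 155 to 163 CPM for 5 genes of the oligodendrocyte lineage. They ranged likewise from 224 to 234 and from 206 to 226 CPM for 4 pluripotency genes, from 175 to 192 and from 151 to 169 CPM for 5 mesenchymal genes, and from 3.78 to 5.35 and from 3.96 to 4.32 CPM for 7 leukocyte genes. The mesenchymal sum joins opposite changes. In group means PDGFRB fell from 76.6 to 43.2 CPM and LUM from 33.9 to 29.7 CPM, while COL1A1 rose from 63.8 to 76 CPM. COL1A2 and DCN did not pass. GFAP, SOX10 and CD3E were at 0 in all 6 libraries. The part of these markers in the synthetase differences was not tested, and fewer cells of a type cannot be told apart from less RNA per cell.

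The comparison of knockdown with control asked whether the RNA of these enzymes differed. Small rises were found in both compartments. Of the 36 genes, 13 rose, none fell and 23 did not pass the quasi-likelihood test of edgeR, at an adjusted p under 0.05 over 13632 genes. Over all tested genes 33.3% were called, 15.3% higher and 18.1% lower, against 36.1% of the synthetase genes called higher. AARS was the member that was lower at an unadjusted p under 0.05. DESeq2 called none lower, while AARS was called lower with the replicate number as a block (edgeR adjusted p = 0.0439), and KARS and NARS2 with the trend on length and GC content removed (edgeR adjusted p = 0.0214 and 0.0158). Control and knockdown libraries were fully separated, without overlap, in 15 genes that were higher and 3 that were lower, where 21.6% and 22.7% of all tested genes (44.3% together) showed no overlap in those directions. The largest rise was 1.28-fold, in CARS. The median log2 fold change was 0.0916 over the 20 cytosolic genes and 0.104 over the 16 mitochondrial genes, a median of 1.07-fold in each, beside 0.00151 over all tested genes. With the trend on length and GC content removed, the cytosolic median was 0.0455 and the mitochondrial one 0.0862. Of the cytosolic genes 8 rose (40%), or 4 without control replicate 1, and of the mitochondrial genes 5 rose (31.2%), or 0 by DESeq2, 2 without knockdown replicate 2 and 3 without knockdown replicate 3. Calls over all tested genes, in either direction, also became fewer in these analyses. They numbered 4545 in the main analysis, 3875 without control replicate 1 and 2865 by DESeq2. Without knockdown replicate 2 they numbered 3652, and without knockdown replicate 3 they numbered 4297.

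**Figure D1:**
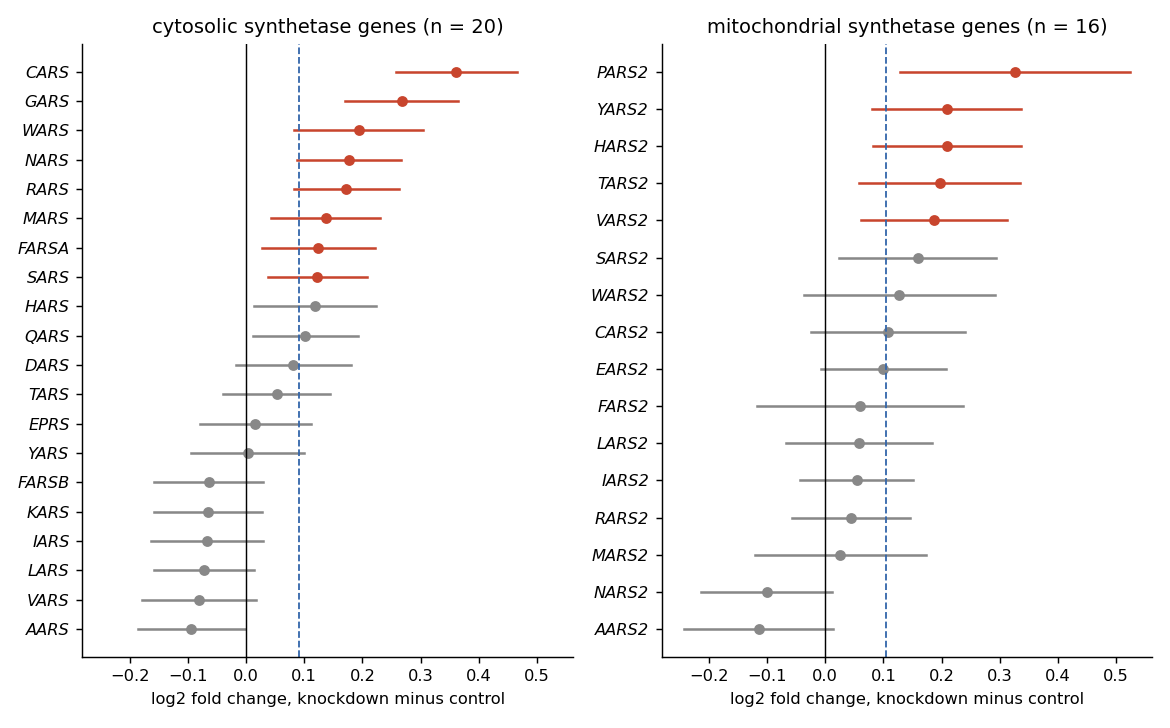
Log2 fold change of each synthetase gene, knockdown minus control, with its 95% interval, for cytosolic genes (left) and mitochondrial genes (right). Red points are genes called higher and grey points did not pass; the blue dashed line is the median of the panel, 0.0916 on the left and 0.104 on the right.

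Among the cytosolic enzymes, the clearest rise was in CARS, which charges cysteine. CARS (ENSG00000110619, chromosome 11 from 3000922 to 3057613 in GRCh38, GENCODE v29, minus strand) had 117, 116 and 123 CPM in the control libraries and 148, 142 and 167 CPM in the knockdown libraries. Every knockdown library was above every control library, and the log2 fold change was 0.36 (SE 0.0512, edgeR adjusted p = 1.83e-06). GARS, the enzyme for glycine, whose gene also supplies the mitochondrial form, spans 30594681 to 30634033 of chromosome 7 (plus strand). It had 187, 195 and 204 CPM in control and 228, 223 and 251 CPM in knockdown. These groups did not overlap either, and the log2 fold change was 0.27 (SE 0.0479, edgeR adjusted p = 5.88e-05). KARS, the lysine enzyme that likewise serves both compartments from 1 gene, stood at 159 ± 6.86 CPM in control against 152 ± 5.17 in knockdown and did not pass (log2 fold change −0.07, 95% interval from −0.158 to 0.027).

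NARS, for asparagine, and RARS, for arginine, rose by 1.13-fold each. NARS had 213, 202 and 210 CPM in control and 232, 229 and 243 CPM in knockdown (log2 fold change 0.18, SE 0.0436, edgeR adjusted p = 0.00213). RARS had 126, 125 and 135 CPM in control and 143, 146 and 146 CPM in knockdown (log2 fold change 0.17, SE 0.0445, edgeR adjusted p = 0.0032). In both genes the knockdown libraries lay above all control libraries. The calls of CARS, GARS, NARS and RARS held in all 16 alternative analyses. MARS (methionine), SARS (serine) and FARSA (the alpha subunit of the phenylalanine enzyme) rose by 1.1-fold, 1.09-fold and 1.09-fold, with edgeR adjusted p of 0.0218, 0.0243 and 0.0433. Each of these calls was lost in some analyses that left out 1 library, as given with the processing alternatives. Of the exon bases of MARS, 12.4% are also covered on the other strand by DDIT3 or ARHGAP9. DDIT3, which encodes the stress transcription factor CHOP, rose from 19.6 ± 1.69 to 24.2 ± 2.55 CPM, beside 262 ± 11.4 and 288 ± 14.1 CPM for MARS (SD, n = 3 each). Its part in the MARS difference was not tested.

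The other 12 cytosolic genes did not pass. Among them FARSB, the beta subunit that pairs with FARSA in 1 enzyme, had 105, 104 and 107 CPM in control and 103, 103 and 96.9 CPM in knockdown (log2 fold change −0.06, edgeR adjusted p = 0.293). Its groups did not overlap and lay in the opposite order to those of FARSA. AARS, the alanine enzyme, had 168, 175 and 182 CPM in control and 159, 161 and 171 CPM in knockdown, with overlap (log2 fold change −0.09, SE 0.045, edgeR adjusted p = 0.11). YARS, for tyrosine, had 180, 190 and 204 CPM in control and 186, 186 and 201 CPM in knockdown, the difference nearest to 0 in the set (95% interval of the log2 fold change from −0.095 to 0.1). LARS, the leucine enzyme, and QARS, the glutamine enzyme, had groups that did not overlap, LARS lower (log2 fold change −0.07) and QARS higher (0.10), with edgeR adjusted p of 0.186 and 0.0731. HARS (histidine; log2 fold change 0.12), DARS (aspartate; 0.08), TARS (threonine; 0.05) and EPRS, which joins the glutamate and proline enzymes in 1 protein (0.02), had values above 0, and IARS (isoleucine; −0.07) and VARS (valine; −0.08) below 0. Over the 12 genes, the 95% intervals ran from −0.185 (AARS) to 0.224 (HARS) on the log2 scale.

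Of the 8 cytosolic enzymes that belong to the multisynthetase complex, MARS and RARS rose and the other 6 did not pass. The median log2 fold change of the 8 was 0.0486. Of the 12 cytosolic genes outside it, 6 rose, with a median of 0.121. Enzymes of the 2 structural classes, which differ in the fold of the catalytic domain, had similar counts: 4 of 9 cytosolic class I genes and 4 of 10 class II genes rose, with medians of 0.102 and 0.1. EPRS, which holds domains of both classes, is counted in neither. These are counts with no test of the differences between the groups of genes, and 15.3% of all tested genes were called higher.

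The change in WARS lay within the range of the other synthetases. WARS (ENSG00000140105, chromosome 14 from 100333788 to 100376805, minus strand) had 168, 176 and 192 CPM in control and 189, 197 and 225 CPM in knockdown. Knockdown replicate 1 lay below control replicate 3, so the groups overlapped. The gene rose by 1.14-fold (log2 fold change 0.19, SE 0.0546, 95% interval from 0.082 to 0.305, edgeR adjusted p = 0.00661), the seventh-ranked of the 36 changes, and 83.7% of all tested genes had a log2 fold change at or below its own. Leaving out control replicate 1 or knockdown replicate 3 ended its call, with edgeR adjusted p of 0.0591 and 0.0864. The other 19 cytosolic genes had 7 higher (36.8%), none lower and a median of 0.0812. Over all tested genes 15.3% were higher and 18.1% lower, with a median of 0.00151. WARS made up 4.6%, 4.76% and 4.95% of the summed CPM of the cytosolic genes in control and 4.92%, 5.1% and 5.56% in knockdown. Of its exon bases, 10.6% are covered on the other strand, by WDR25 among others, which had 26.5 ± 1.9 and 25.7 ± 1.62 CPM. WARS2, the mitochondrial counterpart, had 26.3, 26.4 and 24.7 CPM in control and 29.9, 27.8 and 27.1 CPM in knockdown, without overlap, and its edgeR adjusted p was 0.231 at a log2 fold change of 0.13.

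Genes of the interferon response moved by much more in the same libraries. All 12 genes of a comparison list were higher (11 by DESeq2), beside 15.3% of all tested genes, at a median log2 fold change of 3.58. That direction was known from earlier results of these data. IRF1, an interferon-induced transcription factor, rose from 4.79 ± 0.637 to 13.6 ± 1.63 CPM (SD, n = 3 each), and MX1, IFIT1 and ISG15 rose by between 4.89 (ISG15) and 6.58 (MX1) on the log2 scale. STAT2 had the smallest change on the list, 0.29, which is still above the 0.19 of WARS, but the difference between these 2 genes was not tested.

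**Figure D2:**
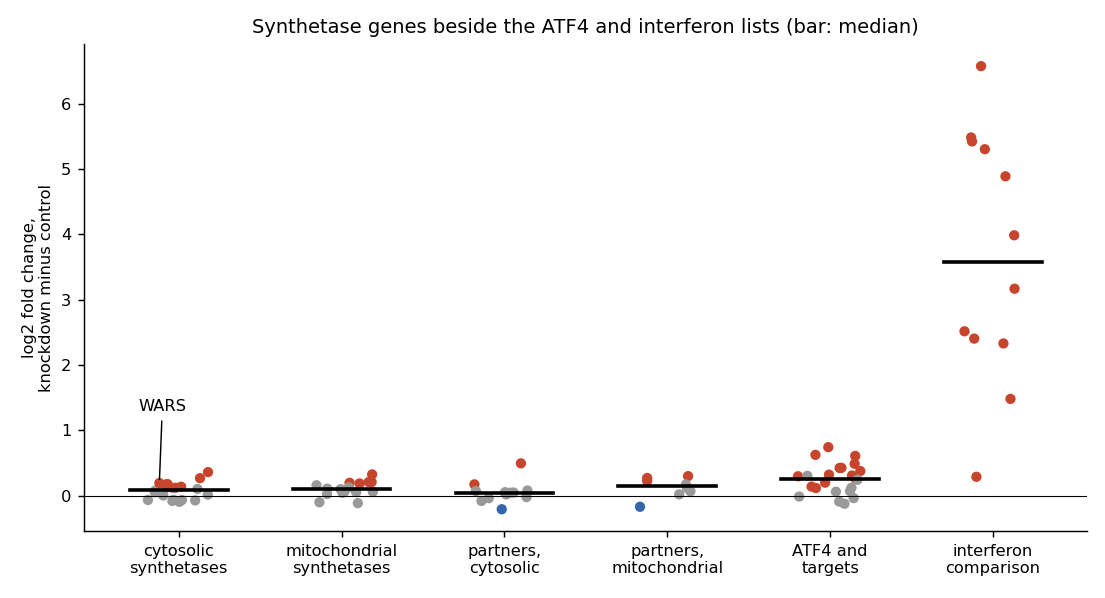
Log2 fold change, knockdown minus control, of each tested gene in 6 lists, with the list's median as a black bar. Red points are higher, blue lower and grey not passed; the synthetase lists, with WARS at 0.19, lie close to 0, the ATF4 list has a median of 0.255 and the interferon list one of 3.58.

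Among the mitochondrial enzymes the largest fold was in PARS2, which charges proline and had the lowest CPM of the 36 genes, not scaled to length. PARS2 (ENSG00000162396, chromosome 1 from 54756898 to 54764514, minus strand) had 15.5, 15.8 and 15.3 CPM in control and 19, 19.8 and 19.7 CPM in knockdown. The groups lay well apart, and the gene rose by 1.25-fold (log2 fold change 0.33, SE 0.0967, edgeR adjusted p = 0.00957). YARS2, for tyrosine, had 39.3, 40.5 and 38.8 CPM in control and 47, 45.3 and 44.7 CPM in knockdown (log2 fold change 0.21, SE 0.0627, edgeR adjusted p = 0.0106). HARS2, for histidine, had 43.2, 44.3 and 41.8 CPM in control and 50.3, 52.5 and 47.1 CPM in knockdown (log2 fold change 0.21, SE 0.0623, edgeR adjusted p = 0.0101). Neither gene had overlapping groups. HARS2 and HARS are neighbours on opposite strands, and 11.7% of the exon bases of HARS2 are shared with HARS, which did not pass. A further 4.07% belong on the same strand to ZMAT2, which rose from 79.1 ± 2.59 to 87.5 ± 4.64 CPM (SD, n = 3 each; edgeR adjusted p = 0.0315), and its part in the HARS2 difference was not tested.

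VARS2, for valine, had 46.3, 44.2 and 44.4 CPM in control and 48, 52.5 and 53.6 CPM in knockdown (log2 fold change 0.19, edgeR adjusted p = 0.0194). On the same strand, 22% of its exon bases also belong to GTF2H4, which had 45 ± 2.12 and 45 ± 1.93 CPM. TARS2, for threonine, had 40.1, 46.1 and 38.7 CPM in control and 45.3, 48.3 and 49.6 CPM in knockdown, where control replicate 2 overlapped the knockdown libraries (log2 fold change 0.20, edgeR adjusted p = 0.0247). By DESeq2 the adjusted p of these 5 mitochondrial genes was between 0.0612 (PARS2) and 0.111 (TARS2).

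The other 11 mitochondrial genes did not pass, and 9 of them had log2 fold changes above 0. SARS2, for serine, came nearest, with 44.3 ± 1.01 CPM in knockdown against 39.8 ± 2.89 in control (log2 fold change 0.16, edgeR adjusted p = 0.0634), and 46.2% of its exon bases also belong to another gene on the same strand. On the other strand, 10.8% belong to MRPS12, a mitochondrial ribosomal protein gene that rose from 26.9 ± 1.28 to 32.7 ± 1.72 CPM. AARS2, for alanine, had the lowest value of all 36 genes, with 53.6, 49.8 and 46.5 CPM in control and 44.8, 47.5 and 47.4 CPM in knockdown, overlapping (log2 fold change −0.11, edgeR adjusted p = 0.165). NARS2, for asparagine, had groups without overlap, 60.3, 60.1 and 57.6 CPM in control and 55.9, 54.2 and 56.1 CPM in knockdown (log2 fold change −0.10, edgeR adjusted p = 0.159). MARS2, for methionine, had 36, 35.4 and 31.5 CPM in control and 36.6, 34.8 and 34.1 CPM in knockdown, with overlap and the smallest difference among the mitochondrial genes (log2 fold change 0.03, 95% interval from −0.121 to 0.173). CARS2, EARS2, FARS2, IARS2, LARS2, RARS2 and WARS2 had log2 fold changes between 0.04 (RARS2) and 0.13 (WARS2). The intervals of the 11 genes ran from −0.243 (AARS2) to 0.294 (SARS2), wider than in the cytosolic set, where counts were higher.

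**Figure D3:**
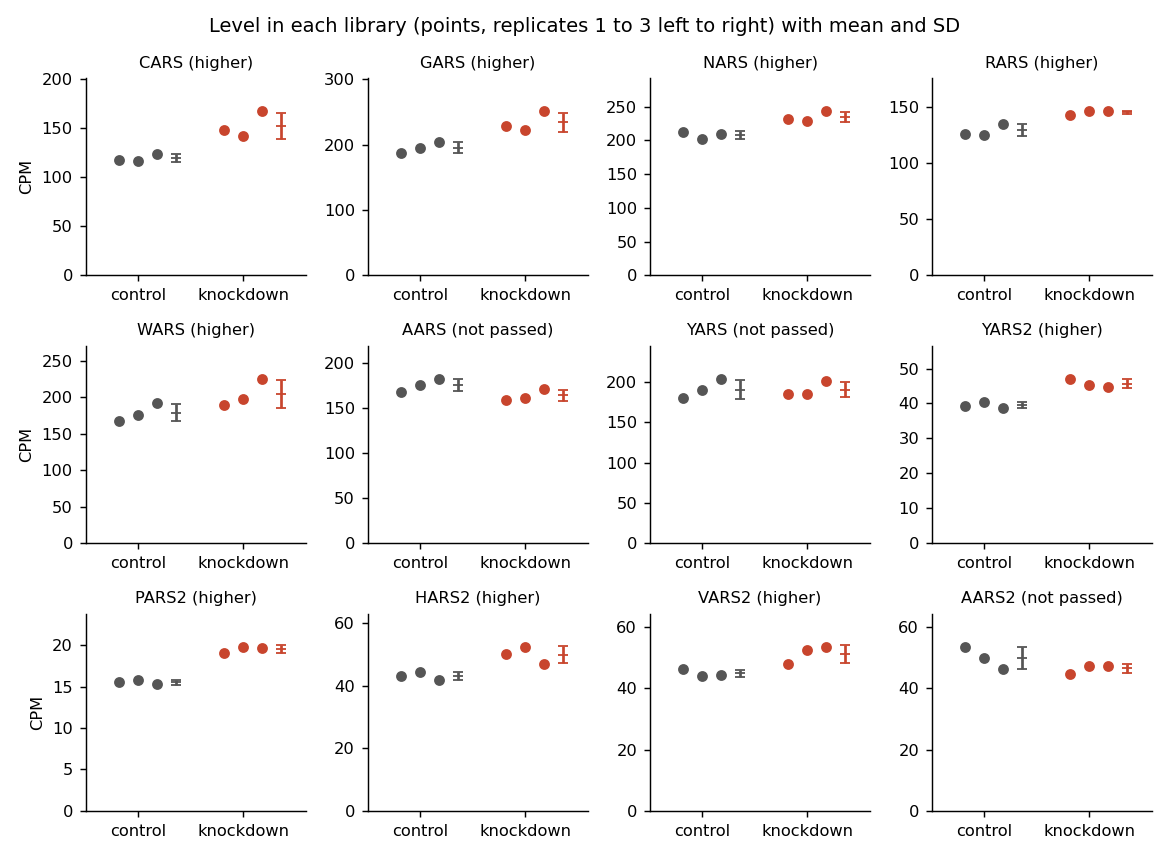
CPM of 12 synthetase genes in each of the 6 libraries (grey control, red knockdown, replicates 1 to 3 from left to right), with the mean and SD of each group. CARS, GARS, NARS, RARS, PARS2, YARS2, HARS2 and VARS2 have all knockdown libraries above all control libraries, while WARS, AARS, YARS and AARS2 overlap.

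Cytosolic genes had the higher levels, while the median differences between the groups were close to each other. Per kilobase of annotated exon, the median level in control was 37.6 CPM per kb over the cytosolic genes (from 10.2 for HARS to 65.8 for SARS) and 11.3 over the mitochondrial genes (from 4.05 for CARS2 to 32.1 for IARS2). Exon lengths join all annotated transcripts of a gene, which lowers this level for genes with long minor transcripts. For 13 amino acids the set holds a cytosolic and a mitochondrial gene. The cytosolic log2 fold change was the larger in 6 of the 13 pairs, and the median difference, cytosolic minus mitochondrial, was −0.037. The gap was widest for NARS over NARS2 (0.278) and CARS over CARS2 (0.253) in 1 direction and for VARS2 over VARS (−0.267) and YARS2 over YARS (−0.206) in the other, and these differences were not tested. In no pair did both genes pass the test. Summed over genes, the cytosolic set had 3746 ± 118 CPM in control against 3916 ± 116 in knockdown, and the mitochondrial set 788.3 ± 27.8 and 838.7 ± 8.65 CPM (SD, n = 3 each). The mitochondrial sums did not overlap, while the cytosolic sum of control replicate 3, 3878.9 CPM, was above those of knockdown replicates 1 and 2, at 3843 and 3855.2 CPM.

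**Figure D4:**
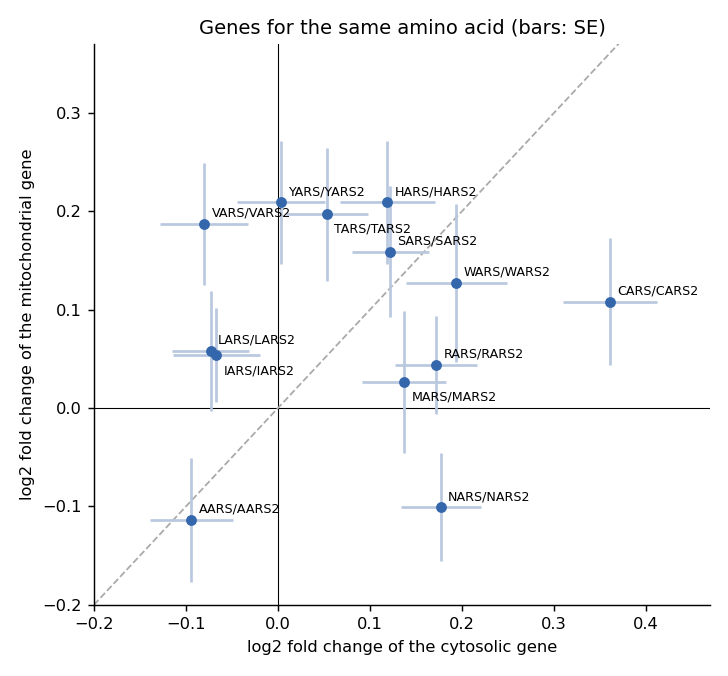
Log2 fold change, knockdown minus control, of the cytosolic gene (x axis) and the mitochondrial gene (y axis) for each of 13 amino acids, with standard errors. The dashed line marks equal values; 6 pairs lie below it, where the cytosolic value is larger, and 7 above it.

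ATF4 and its other known targets were compared as a list of 24 genes without synthetases. Of 23 tested, 14 rose (60.9%, beside 15.3% of all tested genes) and 9 did not pass, none being called lower. Their median log2 fold change was 0.255, and a rise of such genes was known from earlier results of these data. ATF4 itself stood at 300 ± 2.37 CPM in control against 292 ± 9.93 in knockdown and did not pass (edgeR adjusted p = 0.533). ASNS (asparagine synthetase), ATF3 (a stress transcription factor), MTHFD2 (a mitochondrial folate enzyme) and CHAC1 (which degrades glutathione) had log2 fold changes of 0.49, 0.42, 0.38 and 0.74. CARS and GARS, at 0.36 and 0.27, were above that list's median, and the other 18 cytosolic genes below it. Knockdown replicate 3 was the highest of the knockdown libraries for 21 of the 23 genes and for 11 of the 20 cytosolic synthetases, against 36.4% of all tested genes. Without that library, 11 genes of the ATF4 list and 6 cytosolic synthetases were called higher. Over all tested genes, 4297 were then called in either direction, against 4545 with all 6 libraries.

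Of 13 cytosolic partners of the synthetases, 2 rose (15.4%, beside 15.3% of all tested genes) and 1 fell, and their median log2 fold change was 0.0477. A single partner rose by DESeq2 or without control replicate 2, control replicate 3 or knockdown replicate 1. AIMP1, a scaffold of the multisynthetase complex, rose from 60.4 ± 2.19 to 68.3 ± 5.93 CPM, while its partner scaffold EEF1E1 fell from 49.7 ± 1.33 to 43.1 ± 1.2 CPM (SD, n = 3 each; edgeR adjusted p = 0.0238 and 0.00858). PSTK, the kinase that acts on the way to selenocysteine on its transfer RNA, rose from 8.14 ± 1.33 to 11.7 ± 1.14 CPM. The other partners, among them AIMP2, the transfer RNA exporter XPOT and the elongation factors EEF1A1, EEF1B2, EEF1D and EEF1G, did not pass. EEF1A1 has many near-identical pseudogenes, so its count is uncertain. Of 8 mitochondrial partners, 3 rose (37.5%, beside the same 15.3%) and 1 fell, with a median of 0.145, and 1 rose by DESeq2 against 5 with upper-quartile or library-size scaling. GATB, a subunit of the amidotransferase that makes glutaminyl-tRNA from the product of EARS2, rose from 34.4 ± 1.32 to 42.5 ± 0.363 CPM, while its other subunits GATC and QRSL1 did not pass (edgeR adjusted p = 0.774 and 0.0525). MTFMT, which formylates the initiator charged by MARS2, and the elongation factor TSFM rose by 0.27 and 0.23 on the log2 scale, and the elongation factor GFM1 fell by 0.17. Of the 4 eIF2 kinases, EIF2AK4 (GCN2, the sensor of uncharged transfer RNA) fell from 131 ± 1.04 to 112 ± 6.04 CPM, and EIF2AK2 (PKR, an interferon-induced sensor of double-stranded RNA) rose from 55.1 ± 0.521 to 130 ± 3.31 CPM.

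Promoter windows of 250 bases before 1 RefSeq start per gene (GRCh38.p14) were given for 30 of the 36 genes, 16 cytosolic and 14 mitochondrial. They were searched on both strands for 3 words. For some genes, among them WARS, NARS, MARS, TARS and EARS2, the window lies inside the GENCODE span of the gene. The bases before that span were then not searched. The word TGATGNAA is the core of the element that ATF4 and C/EBP factors bind. It was in 2 cytosolic windows (AARS and IARS), 1 mitochondrial window (YARS2) and 3 of 19 windows of the ATF4 list. It was also in 1 of 10 windows of the interferon list (GBP1) and in 3.19% of all 27305 windows. AARS and IARS did not pass the test and YARS2 rose, and the windows of CARS, GARS, NARS and RARS held none of the 3 words. TTCNNNGAA, the gamma-activated site of interferon-responsive promoters, was in the windows of TARS, PARS2 and WARS2 and in 6.78% of all windows. It was in 2 of 10 windows of the interferon list and 1 of 19 of the ATF4 list. The interferon-stimulated response element (ISRE) was searched as a pair of GAAA words 2 bases apart. That pair was in the window of EARS2, in 5 of 10 windows of the interferon list, in 1 of 19 of the ATF4 list (ATF5) and in 3.07% of all windows. The window of WARS held none of the 3 words, which says only that these letters are not in it. Bases before the GENCODE start of WARS were not searched. The matches in the synthetase windows are printed on the strand of the gene, with the word or its reverse complement in capitals, and 1 match each of ASNS, CHAC1, IRF1 and IFIT1 is shown for comparison. They lie at chr16:70289676-70289703 (AARS), chr9:92293698-92293720 (IARS), chr12:32756077-32756104 (YARS2), chr7:97872459-97872486 (ASNS), chr15:40953252-40953279 (CHAC1), chr5:33440828-33440856 (TARS), chr1:54764734-54764762 (PARS2), chr1:119140845-119140873 (WARS2), chr5:132490879-132490907 (IRF1), chr16:23557554-23557583 (EARS2) and chr10:89392497-89392526 (IFIT1). TARS, CHAC1 and IFIT1 are on the plus strand and the others on the minus strand.
AARS, TGATGNAA: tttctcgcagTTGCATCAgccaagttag
IARS, TGATGNAA: tttcagcgcgTTGCATCAcctcc
YARS2, TGATGNAA: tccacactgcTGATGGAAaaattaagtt
ASNS, TGATGNAA: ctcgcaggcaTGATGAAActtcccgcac
CHAC1, TGATGNAA: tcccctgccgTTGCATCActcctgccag
TARS, TTCNNNGAA: gcgacctgatTTCCTAGAAgggctctgtc
PARS2, TTCNNNGAA: acctcccaagTTCCTAGAAagtacttccg
WARS2, TTCNNNGAA: gaaattctccTTCCAGGAAggctgagcag
IRF1, TTCNNNGAA: acagcctgatTTCCCCGAAatgacggcac
EARS2, ISRE: cctgccacgcTTTCGCTTTCccaagctgaa
IFIT1, ISRE: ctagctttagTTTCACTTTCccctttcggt
AARS and IARS hold the same letters as CHAC1, TTGCATCA. Their log2 fold changes were −0.09 and −0.07, and that of CHAC1 was 0.74. These matches describe the sequence and do not show binding.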

How the data were processed

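The authors deposited 1 table per library with a whole-number read count per gene symbol, not normalised. Per the submitters' processing notes, the build was hg38 and the tools included bedtools, STAR 2.7.10a and Trim Galore 0.6.6. How reads were counted, with which annotation and strand setting, is not given in the sources used here, so reads of overlapping genes may not have been told apart. Groups came from the sample titles. Counts were filtered with filterByExpr, which kept 13632 of 26485 symbols, scaled by TMM and compared with the quasi-likelihood test of edgeR 4.0.16 (R 4.3.3), with no covariate and Benjamini-Hochberg adjustment over all tested genes. Standard errors are the log2 fold change divided by the square root of F, and 95% intervals use the test's moderated degrees of freedom. CPM are scaled to TMM-adjusted totals. The alternatives were library-size, RLE and upper-quartile scaling, no filter, 1 CPM in 3 libraries, DESeq2 1.42.0, limma-voom (limma 3.58.1), the replicate number as a block, removal of each library's GC and length trend (loess with span 0.5, for 94.4% of tested genes), leaving out each library, and an adjusted p under 0.01. Coordinates, exon lengths and overlaps came from GENCODE v29 (GRCh38). All 36 genes were to be accounted for, with values per library for WARS, the genes with the smallest p and those with the largest and smallest change in each compartment, and up to 4 genes of each other list were named by smallest adjusted p; others are named after their values were seen. The members and lists were chosen with earlier results of these data known. No pair of replicates agreed within sampling noise (chi-square per degree of freedom 1.23 to 1.994). Some single genes are not reported here.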

Additional observations from a re-analysis of the deposited data

How the results depend on the processing

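In all 16 alternatives the direction of the 13 genes called higher was kept, and between 6 and 13 of the 13 calls held, with 6 at an adjusted p under 0.01, 7 by DESeq2, 8 without control replicate 1, without knockdown replicate 2 and without knockdown replicate 3, and 9 with the trend on length and GC removed. The count of cytosolic genes called higher was 5 at an adjusted p under 0.01 and between 4 (without control replicate 1) and 9 over the analyses that left out 1 library. The count of mitochondrial genes called higher was 0 by DESeq2, 3 with the length and GC trend removed, 1 at an adjusted p under 0.01, and between 2 and 5 with 1 library left out. With the length and GC trend removed, 1 cytosolic gene (KARS) and 1 mitochondrial gene (NARS2) were called lower and the cytosolic median fell to 0.0455; the cause was not tested. With the replicate block, 1 cytosolic gene (AARS) was called lower and 16 synthetase genes higher. Deviations from the group mean correlated at 0.079, 0.005 and 0.071 between libraries of the same number, and at −0.104 to 0.039 between the others. These values do not settle whether the numbers pair the libraries. With the block, 5248 of all tested genes were called, against 4545 without it. FARSA lost its call in 8 of 16 alternatives, SARS in 7, TARS2 in 6, VARS2 in 5, MARS and HARS2 in 4, YARS2 in 3, WARS in 2 and PARS2 in 1, with FARSA up to an adjusted p of 0.22 and SARS up to 0.316. Over all genes, DESeq2 called 2865 and an adjusted p under 0.01 left 2943, against 4545. With 1 library left out, between 3608 (without knockdown replicate 1) and 4297 (without knockdown replicate 3) of all genes were called. Values close to 0 changed sign and never passed: EPRS to −0.034 without knockdown replicate 3 (up to 0.055 with 1 library left out), YARS to −0.001 with the replicate block, −0.003 with the length and GC trend removed, −0.041 without control replicate 1 and −0.032 without knockdown replicate 3 (up to 0.05 with 1 left out), MARS2 to −0.027, −0.018 and −0.001 with that trend removed, without control replicate 3 and without knockdown replicate 1 (up to 0.066 with 1 left out), and RARS2 to −0.009 with that trend removed. Changes of this size are near the limit of 3 libraries a group, since the median standard error was 0.0461 for cytosolic and 0.0628 for mitochondrial genes.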

Other observations

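The control libraries differed among themselves in the 2 compartments in opposite directions. Control replicate 3, the library with the fewest counts, was the highest control for 16 of the 20 cytosolic genes, against 34.9% of all tested genes, and for 0 of the 16 mitochondrial genes. It was the lowest control for 12 of the 16 mitochondrial genes and for 0 of the cytosolic genes, against 37.3% of all tested genes. Relative to the control mean, the median log2 level of the cytosolic genes was −0.035, −0.018 and 0.057 in control replicates 1 to 3. It was 0.075, 0.073 and 0.1 in the knockdown libraries, in the same order. That of the mitochondrial genes was 0.027, 0.021 and −0.049 in control and 0.108, 0.122 and 0.106 in knockdown. The ratio of summed cytosolic to summed mitochondrial CPM was 4.519, 4.633 and 5.127 in control and 4.624, 4.546 and 4.839 in knockdown, so the spread among controls was larger than the difference between the group means of 4.76 and 4.67. Without control replicate 3, the medians of the fitted log2 fold changes were 0.104 and 0.0843.

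For the ATF4 list the same median was 0.189, 0.128 and 0.433 in knockdown replicates 1 to 3, highest in replicate 3, while the mitochondrial synthetases showed no such gap between the knockdown libraries.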
